A study of Mus musculus with 20 samples.

Results

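The 10 genes described here are Lrig1, Plet1, Sostdc1, Fst, Gata6, Krt79, Defb6, Cst6, Ly6d and Klk10. These were listed as markers of the upper hair follicle, the stretch above the bulge that comprises the isthmus, the junctional zone and the infundibulum. They were chosen as a list of names, with earlier results of these data known. Each was read from its brightest probe well above background among the probes whose transcript accession maps to the gene. All 10 were on the array, among 18727 genes tested in all, and each was well above background on all 20 arrays. Lrig1 and Plet1 had a further probe each, and the other 8 genes had 1 probe.

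The arrays measured total RNA of cells labelled as hair follicle stem cells from male mice, whose strain and genotype are not given in the sources used here. Their isolation is not described there either, and nothing in the labels says that the samples of a group came from separate mice, so a p-value here rests on the spread among samples that may be technical. The study, by its title, concerns obesity and hair thinning. There were 5 conditions. Aged mice were 24 months old, and the labels name no diet for them. Mice on a high fat diet (HFD) for 3 months and mice on a normal diet (ND) for 3 months were 5 months old. Mice on HFD for 4 days and mice on ND for 4 days were 2 months old. Each condition had 1 array from anagen, the growth phase of the hair cycle, and 3 arrays from telogen, its resting phase. Levels are log2 of the signal divided by the 75th percentile of the array, so that 0 is the level of that percentile. A level is not comparable between different genes, since probes differ in brightness.

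The bulge holds the stem cells that rebuild the lower follicle at each cycle. The upper follicle above it is maintained by its own progenitors, feeds the sebaceous gland and forms the canal through which the hair leaves the skin. In bulk RNA, fewer cells of a type and less RNA per cell cannot be told apart. The 15 bulge genes used for comparison, with Cd34, Krt15, Lgr5 and Sox9 among them, were well above background on all 20 arrays, so genes of both compartments were measured in every sample.

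Promoter sequence from RefSeq (GRCm38.p6) was at hand for 5 of the 10 genes, Lrig1, Plet1, Krt79, Defb6 and Klk10, as the 250 bases before the start of the gene. It is shown 5' to 3' for 4 of them: Lrig1 and Krt79, which were higher in anagen, Defb6, which holds a GATA motif, and Plet1, whose values lay lower on most anagen arrays. The windows are chr6:94700146-94700395 (minus strand) for Lrig1, chr15:101940325-101940574 (minus strand) for Krt79, chr8:19225228-19225477 (plus strand) for Defb6 and chr9:50494275-50494524 (plus strand) for Plet1. Capitals mark matches to 3 motifs searched on both strands. These are TATAA, which reads TTATA on the other strand, AGATAA, which reads TTATCT there, and CCAAT, which reads ATTGG. The matches within these 4 windows do not overlap.
Lrig1: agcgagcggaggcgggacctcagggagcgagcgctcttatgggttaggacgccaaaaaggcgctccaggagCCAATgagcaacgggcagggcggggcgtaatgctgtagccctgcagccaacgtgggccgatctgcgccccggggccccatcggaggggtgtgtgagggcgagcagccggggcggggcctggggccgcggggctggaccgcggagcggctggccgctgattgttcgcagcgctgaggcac
Krt79: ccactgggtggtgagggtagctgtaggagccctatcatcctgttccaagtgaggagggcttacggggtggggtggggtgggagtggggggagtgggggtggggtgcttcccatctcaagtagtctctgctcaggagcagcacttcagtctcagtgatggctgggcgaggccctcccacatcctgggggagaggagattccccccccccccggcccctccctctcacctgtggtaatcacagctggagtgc
Defb6: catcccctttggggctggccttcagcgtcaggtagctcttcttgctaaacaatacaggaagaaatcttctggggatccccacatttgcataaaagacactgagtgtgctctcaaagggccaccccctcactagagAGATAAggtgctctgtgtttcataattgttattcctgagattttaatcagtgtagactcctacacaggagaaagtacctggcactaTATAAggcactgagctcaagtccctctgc
Plet1: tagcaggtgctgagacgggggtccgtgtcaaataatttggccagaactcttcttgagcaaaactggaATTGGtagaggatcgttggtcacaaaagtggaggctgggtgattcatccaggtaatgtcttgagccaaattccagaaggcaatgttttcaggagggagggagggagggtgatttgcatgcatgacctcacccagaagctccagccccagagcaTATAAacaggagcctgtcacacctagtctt
The Lrig1 window held 26 CpG dinucleotides and was 71.6% G and C. The Krt79 window held 3, the Plet1 window 3 and the Defb6 window 1, against a median of 6 over 32536 promoter windows of that length. TATAA, the core of a TATA box, began 29 bases before the start of Defb6 and 30 bases before that of Plet1, and 22.7% of all windows held it on either strand. AGATAA, a form of the GATA motif, was found in Defb6 alone among the 5 genes, 115 bases before the start, and in 9.97% of all windows. CCAAT stood 179 bases before the start of Lrig1 and, on the other strand, 183 bases before that of Plet1, and in 33.8% of all windows. Lrig1 and Krt79, both higher in anagen, shared none of the 3 motifs, and the Krt79 window held none of them. A match describes these letters only.

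**Figure D1:**
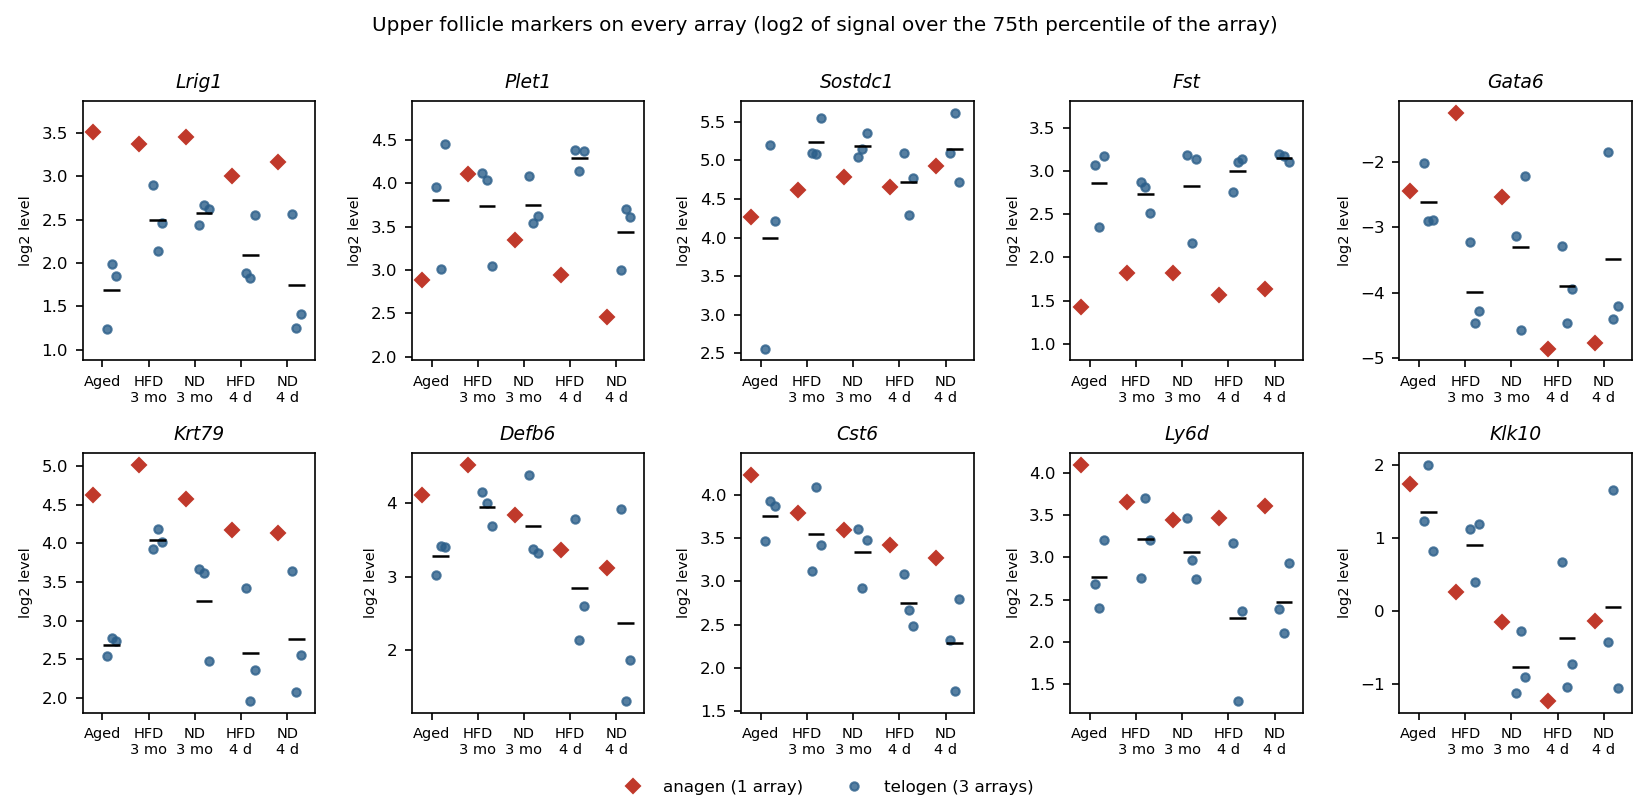
Levels of the 10 upper follicle markers on all 20 arrays. Each panel is 1 gene, the vertical axis is the level (log2 of signal over the 75th percentile of the array) on a range of its own, the horizontal axis gives the condition, red diamonds are the single anagen arrays, blue circles the 3 telogen arrays and black bars their mean. All 5 anagen arrays lie above all 15 telogen arrays for Lrig1 (lowest anagen 3.00, highest telogen 2.90) and below them for Fst (highest anagen 1.82, lowest telogen 2.17).

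Anagen was compared with telogen over all 20 arrays with the condition as a factor, which asks how the upper follicle markers differ between the growing and the resting follicle. Krt79 and Lrig1 rose in anagen 2.72-fold and 2.26-fold, and Fst fell, with levels 2.39-fold lower than in telogen. The other 7 genes did not pass the test. The 3 genes that passed limma's moderated test at a Benjamini-Hochberg adjusted p under 0.05 stand against 6.11% of all genes tested (2.81% higher, 3.31% lower). At an unadjusted p under 0.05 there were 6 of the 10 genes, against 22.9% of all genes. Since the 10 genes were chosen with earlier results of these data known, these counts are a description. The median difference of the 10 genes was 0.41 (log2, anagen minus telogen), against -0.16 over all genes. That shift of all genes was -0.02 after quantile normalization and 0.06 with median scaling.

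Among the genes of the isthmus and junctional zone, Lrig1 encodes a membrane protein that restrains the epidermal growth factor receptor and marks stem cells between the bulge and the sebaceous gland. Its level was 3.51 on the aged, 3.37 on the HFD 3 months, 3.45 on the ND 3 months, 3.00 on the HFD 4 days and 3.17 on the ND 4 days anagen array. In telogen it was 1.24, 1.99 and 1.85 in aged mice, 2.90, 2.14 and 2.46 in HFD 3 months, 2.44, 2.67 and 2.62 in ND 3 months, 1.88, 1.83 and 2.56 in HFD 4 days and 2.57, 1.25 and 1.41 in ND 4 days. Every anagen array lay above every telogen array, and telogen was most spread in ND 4 days, where replicate 1 was high. The mean was 3.30 ± 0.21 in anagen (SD, n = 5) and 2.12 ± 0.54 in telogen (SD, n = 15), a log2 difference of 1.18 ± 0.23 (SE) with an adjusted p of 0.00708 by limma. Its further probe gave a difference of 1.32. Groups that did not overlap were found for 2 of the 10 genes, Lrig1 and Fst, and for 1.51% of all genes.

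Plet1, a surface glycoprotein of the isthmus, had levels of 2.88, 4.11, 3.35, 2.94 and 2.46 on the anagen arrays of aged, HFD 3 months, ND 3 months, HFD 4 days and ND 4 days mice. Its telogen levels ran from 3.00 to 4.45 with a median of 3.96. The anagen array lay below all 3 telogen arrays in 4 conditions, and in HFD 3 months it lay above 2 of 3. The difference of -0.66 ± 0.27 did not pass (adjusted p 0.162, limma), except without the HFD 3 months anagen array, where it was -0.91 with an adjusted p of 0.0429. The further Plet1 probe gave -0.24.

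Gata6, a transcription factor of the junctional zone and sebaceous duct, had the largest spread within groups of the 10 genes, 0.95 on the log2 scale. Its level was -2.45, -1.24, -2.54, -4.86 and -4.78 on the anagen arrays in the same order of conditions, and -4.57 to -1.84 in telogen, with a median of -3.29. The anagen arrays covered both ends of the telogen range: the HFD 3 months array lay above it and both 4-day arrays below it. The pooled difference was 0.28 ± 0.53 (adjusted p 0.773, limma). Without the HFD 3 months anagen array it was -0.33. The Gata6 probe was the dimmest of those used for the 10 genes, with a mean level of -3.39 over the 20 arrays. Its signals were 0.04 to 0.42 times the 75th percentile, beside array medians of 0.088 to 0.168. The part of low signal in the spread of Gata6 was not tested.

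The list held 2 secreted antagonists. Fst, follistatin, binds activins and some bone morphogenetic proteins (BMPs) outside the cell and blocks them. Its level was 1.43 on the aged, 1.82 on the HFD 3 months, 1.82 on the ND 3 months, 1.57 on the HFD 4 days and 1.64 on the ND 4 days anagen array. In telogen it was 3.07, 2.35 and 3.17 in aged mice, 2.87, 2.81 and 2.51 in HFD 3 months, 3.18, 2.17 and 3.14 in ND 3 months, 2.76, 3.10 and 3.14 in HFD 4 days and 3.19, 3.17 and 3.10 in ND 4 days. No anagen array reached the lowest telogen array. The mean was 1.65 ± 0.17 in anagen (SD, n = 5) and 2.91 ± 0.33 in telogen (SD, n = 15), a log2 difference of -1.26 ± 0.19 (adjusted p 0.000988, limma). Fst also had the smallest spread within groups of the 10 genes, 0.35 on the log2 scale, against a median of 0.67 over all genes tested. Its correlation with the other members over the 20 arrays ran from -0.75 (Krt79) and -0.74 (Lrig1) to 0.61 (Plet1). On the 15 telogen arrays these 3 values were -0.44, -0.27 and 0.41 (Pearson's r, given as a description). Which cells of the samples carried the Fst signal was not tested.

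Sostdc1, which encodes a secreted inhibitor of BMP and Wnt signals, had levels of 4.27 to 4.93 in anagen and 2.56 to 5.62 in telogen, with telogen covering the whole anagen range. The difference was -0.20 ± 0.30 (adjusted p 0.709, limma) with a 95% interval of -0.84 to 0.44.

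Krt79 is a type II keratin of the infundibulum and of the cells that form the hair canal. Its level was 4.63 on the aged, 5.02 on the HFD 3 months, 4.58 on the ND 3 months, 4.18 on the HFD 4 days and 4.13 on the ND 4 days anagen array. In telogen it was 2.54, 2.77 and 2.74 in aged mice, 3.93, 4.19 and 4.02 in HFD 3 months, 3.67, 3.61 and 2.48 in ND 3 months, 3.42, 1.96 and 2.36 in HFD 4 days and 3.64, 2.08 and 2.56 in ND 4 days. The anagen array was above all 3 telogen arrays within each condition, and over all conditions the groups overlapped at 1 HFD 3 months telogen array (4.19), which lay just above the HFD 4 days (4.18) and ND 4 days (4.13) anagen arrays. The mean was 4.51 ± 0.36 in anagen (SD, n = 5) and 3.06 ± 0.75 in telogen (SD, n = 15), a log2 difference of 1.44 ± 0.27 (adjusted p 0.00469, limma).

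Of the further surface and secreted products of the infundibulum, none passed. Ly6d, a lipid-anchored surface protein of the Ly6 family, had levels of 4.10, 3.66, 3.45, 3.47 and 3.61 on the anagen arrays of aged, HFD 3 months, ND 3 months, HFD 4 days and ND 4 days mice, and 1.30 to 3.70 in telogen with a median of 2.76. The anagen array exceeded the telogen mean in 5 of 5 conditions, by 0.39 to 1.33, and the pooled difference was 0.90 ± 0.27 (adjusted p 0.0617, limma). It passed in 5 of 28 alternatives, with adjusted p from 0.0287 to 0.183 over all of them.

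Cst6, cystatin M/E, an inhibitor of cysteine proteases of the cornified layer, had levels of 3.27 to 4.23 in anagen and 1.74 to 4.09 in telogen, and differed by 0.53 ± 0.21 (adjusted p 0.152, limma). Defb6, a beta-defensin and thus an antimicrobial peptide, had 3.12 to 4.53 in anagen and 1.30 to 4.39 in telogen, and differed by 0.57 ± 0.34 (adjusted p 0.334). Both lay above the telogen mean in 5 of 5 conditions, though anagen and telogen arrays overlapped. One sign in all 5 conditions was found for 18.9% of all genes, and for 6 of the 10 genes here: Lrig1, Krt79, Ly6d, Cst6 and Defb6 above telogen and Fst below it.

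Klk10, a secreted serine protease of the kallikrein family, had anagen levels of 1.74, 0.26, -0.15, -1.23 and -0.13 in the same order of conditions and telogen levels of -1.12 to 2.01. It differed by -0.14 ± 0.39 (adjusted p 0.852, limma), and anagen was spread as widely as telogen.

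**Figure D2:**
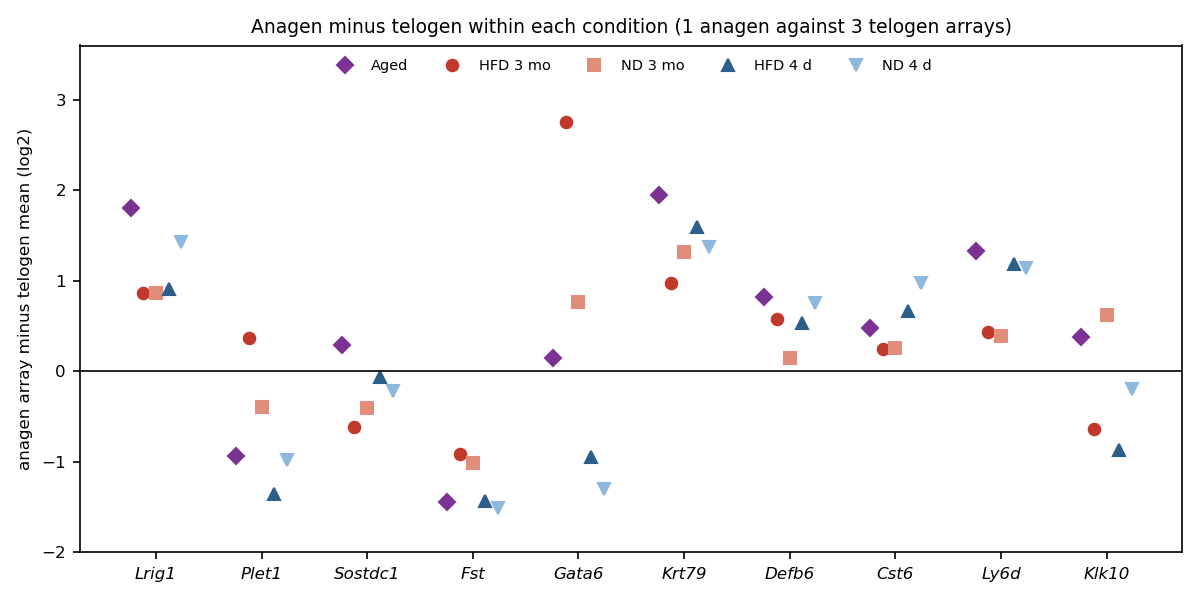
Difference between the single anagen array and the mean of the 3 telogen arrays in each of the 5 conditions (log2, vertical axis) for each of the 10 genes (horizontal axis). Lrig1 lies at 0.87 to 1.81 and Krt79 at 0.98 to 1.95 in all 5 conditions, Fst lies below 0 in all 5, and Gata6 runs from -1.30 to 2.75.

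Column 1 of each slide carried the anagen arrays, and columns 2 to 4 the telogen arrays, so phase and column cannot be told apart. Anagen and telogen arrays of ND 3 months, ND 4 days and aged mice shared a slide. Within these 3, Lrig1 was higher in anagen by 0.87, 1.43 and 1.81, Krt79 by 1.32, 1.37 and 1.95, and the Fst difference was below 0 in each. With the slide as a block the differences were 1.37 for Lrig1 (adjusted p 0.027), 1.55 for Krt79 (adjusted p 0.0322) and -1.32 for Fst (adjusted p 0.0124, all limma). These 3 calls were kept in all 28 alternatives.

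Of the 15 bulge genes, 0 rose and 5 fell in anagen, against 2.81% and 3.31% of all genes in limma's test. Their median was -0.45, against -0.16 over all genes. It was -0.30 after quantile normalization and -0.24 with median scaling. Estimates were above 0 for 2 of the 15, and for 5 of the 15 with median scaling. Cd34, a surface glycoprotein of bulge cells, fell by 2.19 ± 0.20 on the log2 scale (adjusted p 1.99e-05, limma). Krt15, a basal keratin, fell by 0.81 ± 0.18 and Col17a1, a hemidesmosomal collagen, by 0.72 ± 0.16. The transcription factor Foxc1 fell by 0.97 ± 0.25 and the surface protein Cd200 by 1.43 ± 0.40. Cd200 passed in 10 of 28 alternatives, Foxc1 in 22, Col17a1 in 24 and Krt15 in 25. Lgr5 (-0.19 ± 0.21) and Sox9 (-0.57 ± 0.21) did not pass. Of 8 other upper follicle genes, 2 rose in limma's test, among them Krt17, a keratin of the outer sheath, by 0.66 ± 0.17 (adjusted p 0.0316, and 0.138 with the slide block). All 8 had estimates above 0, against 39.63% of all genes, with a median of 0.64. This list was also chosen with earlier results known, so the count is a description.

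**Figure D3:**
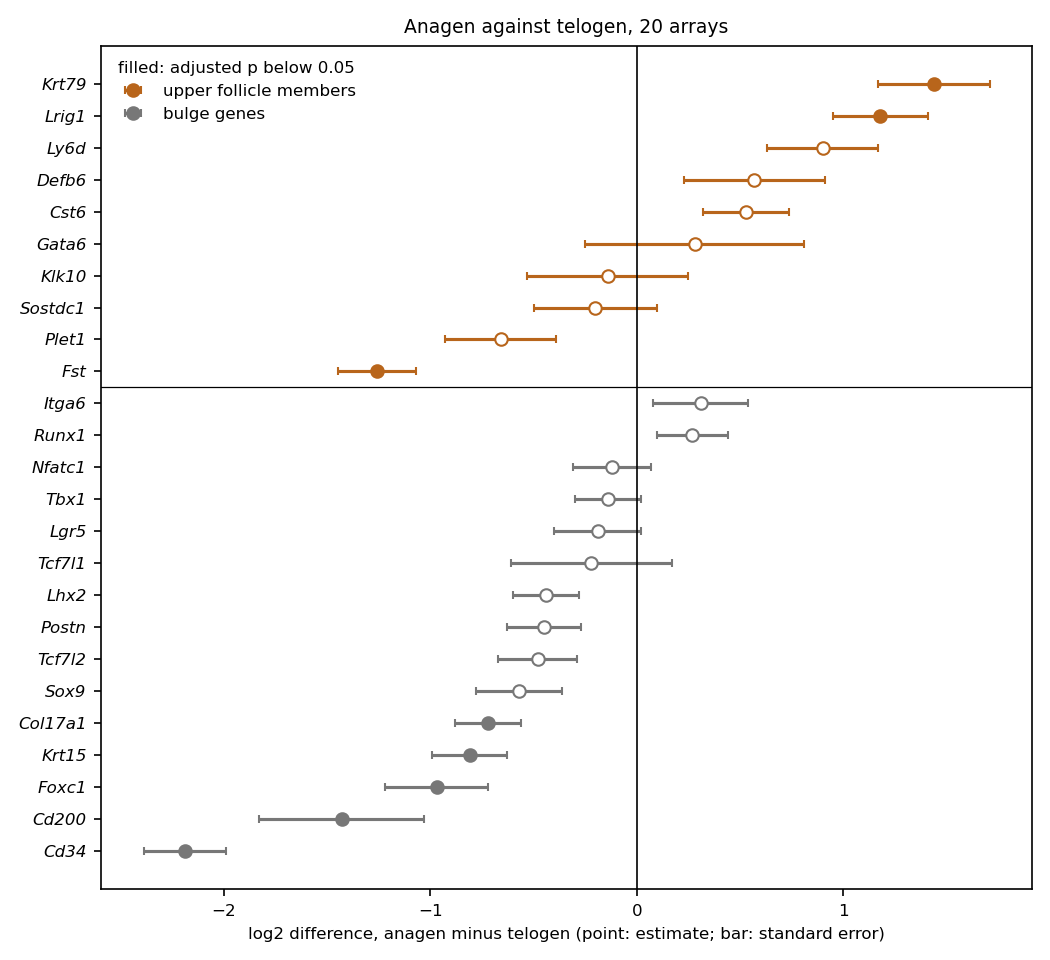
Log2 differences, anagen minus telogen, over 20 arrays for the 10 upper follicle markers (orange) and the 15 bulge genes (grey). Points are estimates, bars standard errors, and filled points had an adjusted p under 0.05. Filled points lie on both sides of 0 among the upper follicle markers (Krt79 1.44, Lrig1 1.18, Fst -1.26) and below 0 among the bulge genes, down to -2.19 for Cd34.

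The pathways and families of the 10 genes were read from lists of their own. Around Lrig1, 0 of 12 genes of epidermal growth factor receptor signalling passed limma's test and 0 had an unadjusted p under 0.05. Over all genes the latter share was 22.9%. The receptor gene Egfr differed by -0.39 ± 0.26 and its ligand gene Hbegf by 0.99 ± 0.52. Around Fst and Sostdc1, 20 genes of activin, BMP and LRP signalling were tested, of which 2 rose and 4 fell. Over all genes 2.81% rose and 3.31% fell. Inhbb, an activin subunit, rose by 1.42 ± 0.35 (adjusted p 0.0256) and the ligand gene Bmp7 by 1.94 ± 0.49 (adjusted p 0.0278). The BMP targets Id2 (-2.40 ± 0.23, adjusted p 2.41e-05) and Id1 (-1.76 ± 0.28, adjusted p 0.00135), the ligand gene Bmp2 (-1.88 ± 0.46) and the BMP antagonist Nog (-1.99 ± 0.49) fell. With the slide block Inhbb, Bmp7 and Nog no longer passed (adjusted p 0.133, 0.11 and 0.0708). The co-receptor genes Lrp4, Lrp5 and Lrp6, through which Sostdc1 can act on Wnt signals, differed by -0.57 ± 0.35, -0.14 ± 0.15 and -0.19 ± 0.26 and did not pass.

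Klk10 was set beside its relatives. Of 10 kallikrein and kallikrein inhibitor genes, 2 rose: Klk6 by 4.31 ± 0.65 (adjusted p 0.000915) and Klk7, a protease that cleaves the junctions of cornified cells, by 1.23 ± 0.35 (adjusted p 0.0451, and 0.0813 with the slide block). The median of the 10 was 1.25, and whether Klk10 differed from them was not tested. Of 7 Ly6 family genes, 1 rose, Slurp1 (2.14 ± 0.47, adjusted p 0.0118, and 0.0682 with the slide block), and all 7 had estimates above 0. Of 5 genes listed with Gata6, 1 rose, the repressor Prdm1 (2.74 ± 0.65, adjusted p 0.018, and 0.0707 with the slide block), while Gata3 differed by 0.01 ± 0.21. Of 7 genes listed with Cst6 (protease genes, Tgm3, Cst3 and Cst6 itself) 0 passed limma's test and 3 had an unadjusted p under 0.05. Of 5 defensin and cathelicidin genes, 0 passed and 1 had an unadjusted p under 0.05. Over all genes, 22.9% had an unadjusted p under 0.05 in limma's test and 39.63% had estimates above 0. At an adjusted p under 0.05, 2.81% of all genes rose and 3.31% fell in that test.

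Markers of other cells were read in the same comparison. Of 11 genes of interfollicular differentiation 1 rose, the suprabasal keratin gene Krt1 (1.26 ± 0.36, adjusted p 0.0477, and 0.126 with the slide block). Of these, 8 of 11 had estimates above 0, with a median of 0.57, beside the 0.41 of the upper follicle markers. The summed signal of that list was 200.44 to 293.30 times the 75th percentile on anagen arrays and 148.19 to 321.89 on telogen arrays. The sum of the bulge list was 309.29 to 411.90 on anagen and 363.80 to 597.12 on telogen arrays, and that of 10 sebaceous genes 30.72 to 47.89 and 17.32 to 50.43, with 0 of the 10 past limma's test and 2 at an unadjusted p under 0.05. The sebaceous genes had estimates above 0 in 9 of 10, with a median of 0.36. The shares of all genes were 39.63% with estimates above 0 and 22.9% with an unadjusted p under 0.05 in limma's test. At an adjusted p under 0.05 in that test, 2.81% of all genes rose and 3.31% fell. The fibroblast sum was 4.37 to 5.89 on anagen arrays, below the 7.01 to 21.70 of all telogen arrays. Of 6 fibroblast genes tested Col1a2 fell (-1.90 ± 0.32) and Col6a1 fell (-1.44 ± 0.22). These were the brightest of the 6 in telogen, with mean levels of 2.28 and 3.03, and weigh most in the sum. Estimates were above 0 for 2 of the 6 and below 0 for 4, with a median of -0.61. Dcn, well above background on 3 anagen and 0 telogen arrays, entered the test only through the anagen arrays, and its level there was at least 2.38-fold higher than the telogen floor, which is given as a description. Of 6 melanocyte genes tested, 3 had estimates above 0 and 3 below it, with a median of -0.01. Mitf alone of these passed, and fell (-2.34 ± 0.54). Of the red blood cell list Hba-a2 fell (-1.24 ± 0.36), which passed in 8 of 28 alternatives. Macrophage and Langerhans cell sums were 3.41 to 28.23 on anagen and 6.68 to 17.36 on telogen arrays, T cell sums 3.12 to 9.98 and 0.74 to 6.86, melanocyte sums 2.79 to 7.37 and 4.30 to 11.01, adipocyte sums 1.84 to 3.81 and 1.43 to 8.08, red blood cell sums 0.42 to 1.32 and 0.41 to 6.08, and endothelial sums 0.11 to 0.95 and 0.11 to 0.24. Of 5 T cell genes tested, 1 had an estimate above 0 and 4 below it, with a median of -0.68. The 1 above was Thy1 (0.95 ± 0.61), the brightest of them, which weighs most in the sum. The endothelial markers Cdh5 and Kdr were below background on all 20 arrays. The part of these cells in the differences of the 10 genes was not tested.

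High fat diet was compared with normal diet in telogen, 3 arrays against 3 for each duration. None of the 10 genes passed limma's test at either duration, and the percentage of all genes that passed was 0 at 3 months and 0 at 4 days. At an unadjusted p under 0.05 there was 1 of the 10 genes at 3 months, Klk10, against 3.9% of all genes, and 0 of 10 at 4 days, against 4.36%. Groups did not overlap for 2 genes at 3 months, Klk10 and Krt79, against 9.85% of all genes, and for 1 at 4 days, Plet1, against 9.7%. The telogen diet groups of a duration lay in different rows of 1 slide, and diet cannot be told apart from row.

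Klk10 had levels of 1.13, 0.40 and 1.19 after 3 months of HFD, against -1.12, -0.27 and -0.91 on ND. All 3 HFD arrays lay above the 3 ND arrays, and the difference was 1.68 ± 0.66 with a 95% interval of 0.25 to 3.10 (adjusted p 1, limma). After 4 days it had 0.67, -1.04 and -0.73 on HFD, against -0.42, 1.66 and -1.06 on ND, with full overlap and a difference of -0.42 ± 0.66. The diet effect at 3 months minus that at 4 days was 2.10 ± 0.93 (adjusted p 1), for which 0% of all genes passed and 3.74% had an unadjusted p under 0.05. On the single anagen arrays the 3-month difference was 0.41 and the 4-day difference -1.10, with no replicate check. The anagen arrays of each pair lay on different slides.

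Krt79 differed by 0.79 ± 0.47 at 3 months (95% interval -0.23 to 1.82) and by -0.18 ± 0.47 at 4 days. Its 3-month levels, given above, were narrow on HFD (SD 0.13) and wide on ND (SD 0.67), where replicate 3 was low at 2.48, and without that array the difference was 0.41. Plet1 had levels of 4.38, 4.14 and 4.37 after 4 days of HFD, against 3.00, 3.70 and 3.61 on ND. The HFD arrays lay above the ND arrays, and the difference was 0.86 ± 0.40 (95% interval -0.02 to 1.73, adjusted p 1). At 3 months Plet1 differed by -0.01 ± 0.40, with 4.12, 4.04 and 3.04 on HFD and 4.08, 3.54 and 3.62 on ND.

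The 3 genes that differed between anagen and telogen had small diet estimates apart from Krt79. Lrig1 differed by -0.08 ± 0.38 at 3 months and 0.35 ± 0.38 at 4 days, and Fst by -0.10 ± 0.32 and -0.16 ± 0.32. The 95% interval for Fst, -0.80 to 0.60 at 3 months, does not reach the size of its anagen difference, and that for Gata6 was wider, -2.26 to 0.89. Over the 10 genes the median difference was 0.11 at 3 months, against -0.04 over all genes, and -0.17 at 4 days, against -0.05. None of the other lists had a gene past the test in either diet comparison.

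**Figure D4:**
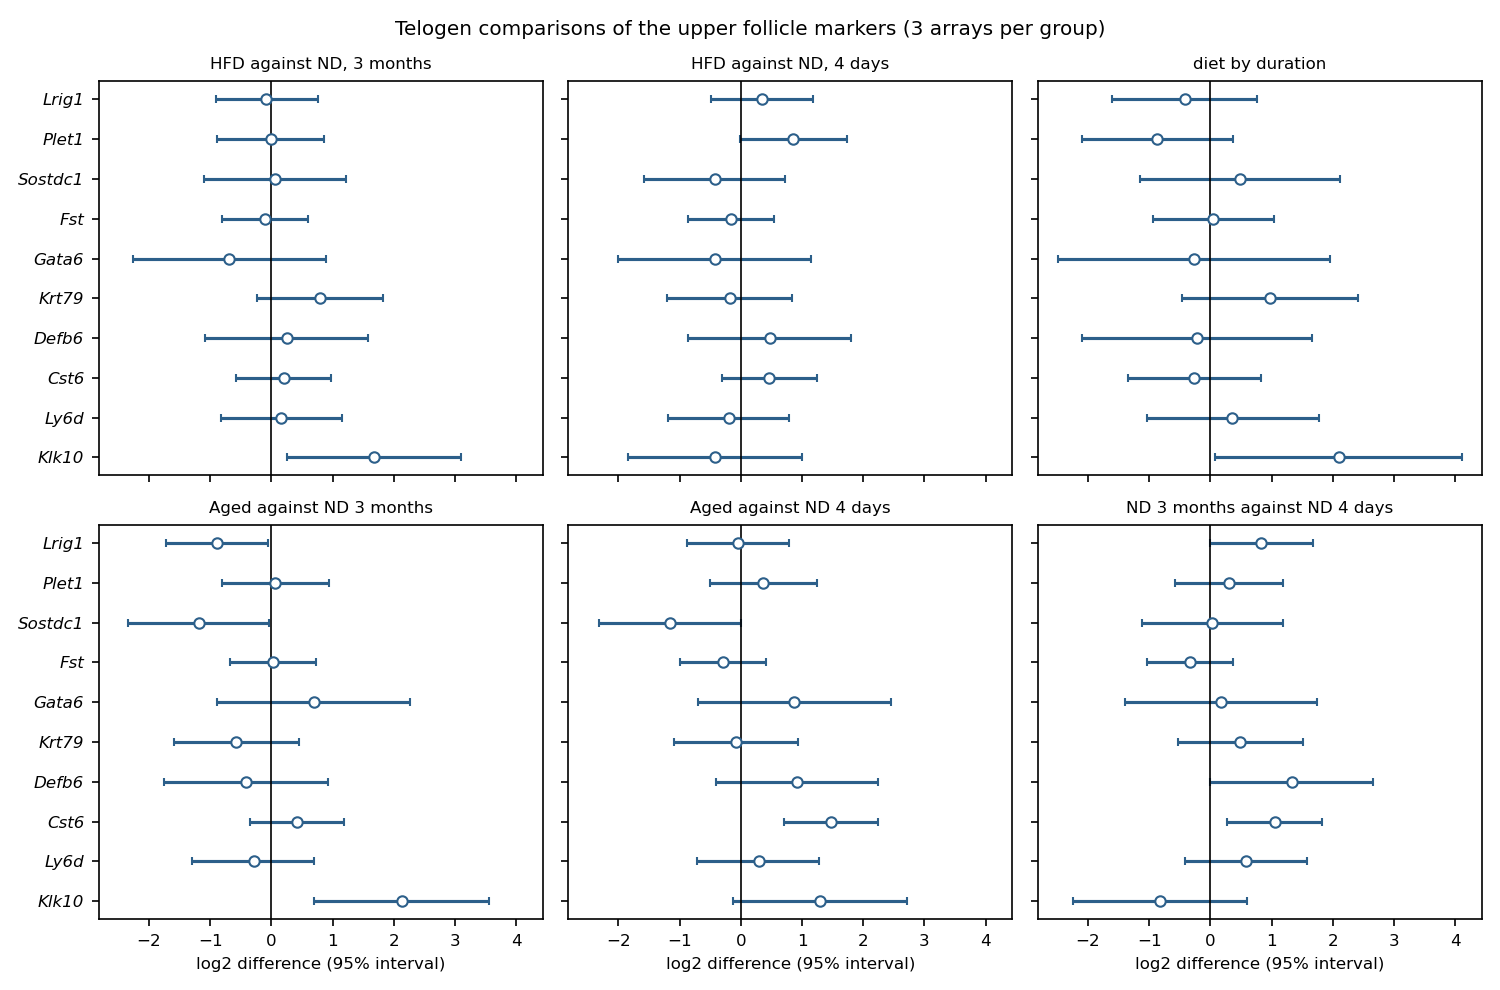
Log2 differences of the 10 genes in the 6 telogen comparisons, 3 arrays per group, with points for estimates and bars for 95% intervals. Open points mark an adjusted p of 0.05 or more, which holds for every point. The intervals farthest from 0 are those of Klk10 in aged against ND 3 months (0.70 to 3.55) and Cst6 in aged against ND 4 days (0.70 to 2.25).

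Aged telogen samples were compared with both ND groups, which are 5 and 2 months old, and the ND groups with each other. The 3 comparisons share arrays. None of the 10 genes passed limma's test in any of them. The share of all genes that passed was 0.0641% in aged against ND 3 months, 0.0374% in aged against ND 4 days and 0.016% in ND 3 months against ND 4 days. At an unadjusted p under 0.05 there were 3, 2 and 2 of the 10 genes in these comparisons, against 11.9%, 7.85% and 11.8% of all genes. The telogen arrays of the 3 groups lay on 3 different slides, and the slide term of a fit with the slide as a block rests on the single anagen arrays.

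Klk10 had levels of 1.24, 2.01 and 0.82 in aged telogen, against -1.12, -0.27 and -0.91 in ND 3 months and -0.42, 1.66 and -1.06 in ND 4 days. All aged arrays were above all ND 3 months arrays, by 2.13 ± 0.66 on average (adjusted p 0.294, limma), and overlapped with ND 4 days at its replicate 2. With the slide block the difference from ND 3 months was 4.12 (adjusted p 0.874). The single aged anagen array was above the ND 3 months anagen array, by 1.89. These arrays lay on different slides, as the telogen arrays of both groups did. Genes without overlap in aged against ND 3 months were Klk10 and Lrig1, 2 of 10, against 18% of all genes.

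Lrig1 in aged telogen, at 1.24, 1.99 and 1.85, lay below the 2.44, 2.67 and 2.62 of ND 3 months without overlap. It differed from ND 3 months by -0.88 ± 0.38 (adjusted p 0.394, limma) and from ND 4 days by -0.05 ± 0.38. With the slide block the difference from ND 3 months was 0.32, of the opposite sign. Sostdc1 had levels of 2.56, 5.20 and 4.21 in aged telogen, against 5.04, 5.15 and 5.36 in ND 3 months. The aged group was the widest of any for this gene (SD 1.34), and the difference was -1.19 ± 0.53 (adjusted p 0.406). Without aged replicate 1, the array at 2.56, it was -0.48. That array also had the lowest summed bulge signal of the telogen arrays, 363.80, against 395.35 and 585.50 on the other aged arrays, and the part of this in the Sostdc1 value was not tested.

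Cst6 had levels of 3.47, 3.93 and 3.87 in aged telogen, 3.61, 2.93 and 3.48 in ND 3 months and 2.32, 1.74 and 2.80 in ND 4 days. Both older groups lay above all ND 4 days arrays, and they overlapped with each other. The difference was 1.47 ± 0.36 for aged against ND 4 days (adjusted p 0.257, limma) and 1.05 ± 0.36 for ND 3 months against ND 4 days (adjusted p 0.348). Cst6 was the 1 gene of the 10 without overlap in each, against 10.5% and 24.2% of all genes. In ND 3 months against ND 4 days, Defb6 differed by 1.33 ± 0.61 and Lrig1 by 0.83 ± 0.38 (both adjusted p 0.421). The slide block left 0.19 for Lrig1. Without ND 4 days replicate 2 the Defb6 difference was 0.80, and without replicate 1 of that group 2.11.

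Replicate 1 of each 4-day telogen group stood apart from its own group in several of the 10 genes. In ND 4 days, replicate 1 against replicates 2 and 3 had 3.93 against 1.30 and 1.86 for Defb6, 3.64 against 2.08 and 2.56 for Krt79, 2.57 against 1.25 and 1.41 for Lrig1 and -1.84 against -4.40 and -4.20 for Gata6. In HFD 4 days it had 3.79 against 2.13 and 2.60 for Defb6 and 3.42 against 1.96 and 2.36 for Krt79. Plet1 (3.00 against 3.70 and 3.61) and Fst (3.19 against 3.17 and 3.10) did not stand high there in ND 4 days. ND 4 days replicate 1 also had the highest share of spots well above background of all 20 arrays (83.5%, against a lowest share of 60.7%). Its bulge sum was 465.65, against 597.12 and 576.70 on replicates 2 and 3, and its interfollicular sum 168.03, against 180.67 and 262.18. In HFD 4 days replicate 1 had the higher interfollicular sum, 242.70, against 148.19 and 159.48. The part of these in the levels was not tested.

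Within telogen, the order of the 5 group means differed from gene to gene. Krt79 was highest in HFD 3 months (4.04 ± 0.13, SD, n = 3), followed by ND 3 months (3.25 ± 0.67), ND 4 days (2.76 ± 0.80), aged (2.68 ± 0.12) and HFD 4 days (2.58 ± 0.75). The last 4 overlapped with their neighbours. Cst6 ran from aged (3.76 ± 0.25) through HFD 3 months (3.54 ± 0.49), ND 3 months (3.34 ± 0.36) and HFD 4 days (2.75 ± 0.31) to ND 4 days (2.28 ± 0.53), and neighbours overlapped. Klk10 was highest in aged (1.36 ± 0.61) and HFD 3 months (0.91 ± 0.44), followed by ND 4 days (0.06 ± 1.42), HFD 4 days (-0.36 ± 0.91) and ND 3 months (-0.77 ± 0.44), with overlap between neighbours. Fst lay between 2.73 ± 0.19 in HFD 3 months and 3.15 ± 0.04 in ND 4 days.

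The genes whose levels were most like those of a member over the 20 arrays were taken from 12026 genes well above background on all of them. The arrays share slides and conditions, and the phase difference contributes to each correlation, so Pearson's r is given as a description. Fst was most like Tbc1d8 (r = 0.93), Cyp4b1 (0.91) and Fat2 (0.91), which were lower in anagen by -1.56 ± 0.22, -1.75 ± 0.22 and -0.81 ± 0.15 (log2). Krt79 was most like Cops5 (0.90), Egr2 (0.90) and Mt4 (0.89), and Lrig1 most like Cpe, Cdk2ap1 and Nlrp1a (0.86 each). Ly6d was most like Calm4 (0.95), Krt10 (0.89) and Hsd17b4 (0.88), of which Krt10 is the suprabasal keratin of the epidermis. Defb6 was most like Defa-ps12 (0.95), a defensin pseudogene, then Zfp750 (0.84) and Egr2 (0.80). Sequence likeness between the probes of Defb6 and Defa-ps12 was not tested. Cst6 was most like Tmprss4 (0.84), Egr1 (0.83) and Ly6e (0.80), Plet1 most like Gins3 (0.87), Afdn (0.85) and Aldh3a2 (0.84), and Sostdc1 most like Rxra (0.93), Pik3r4 (0.86) and Slc39a10 (0.84). The lowest top values were those of Klk10 (Rragc, 0.74) and Gata6 (Senp3, 0.73).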

How the data were processed

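RNA of 20 samples was hybridised to 1 Agilent 1-colour mouse array each. Per the file headers, the deposited scanner files hold spot intensities made with Agilent Feature Extraction 10.7.1.1, background-subtracted and not scaled between arrays. The authors also deposited a series-wide table with 1 linear signal for each probe and array, equal to those intensities divided by the 75th percentile of the array (r of at least 0.99994), with genes not centred. The largest difference between both sources for a member was 0.024 (log2). The medians of its columns were 0.088 to 0.168.

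Outlier spots (62 to 159 of 59305 per array, with 0 saturated) were left out, spots of a probe averaged and log2 values scaled to the 75th percentile. Probes had to be well above background on all 3 arrays of a telogen group or on 3 anagen arrays, which left 43395 of 56605 probes. Of all probes, 32994 matched 1 RefSeq symbol and 23611 none. The brightest tested probe stood for a gene. limma 3.58.1 in R 4.3.3 was fitted over 15 telogen arrays with a mean per group and, for anagen, over 20 arrays with condition as a factor, with two-sided tests adjusted over all genes by Benjamini-Hochberg. The fits were tested on simulated data. The number of arrays limits the precision.

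The members and lists were chosen with earlier results of these data known. All 10 members are named, as are list genes past the threshold, up to 3 more per list, Cd34, Krt15, Lgr5 and Sox9, and the 3 genes most like a member. One list result is not reported here. Alternatives were normexp with an offset of 50 (on the median signal), quantile and median scaling, the series table, other filters and probe rules, other sets of arrays, slide and replicate blocks, and leaving out each array.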

Additional observations from a re-analysis of the deposited data

Results flagged for a closer look

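Gata6 and Klk10 are listed here because the anagen array lay above all 3 telogen arrays in one condition and below all 3 in another. For Gata6 the anagen array minus the telogen mean was 2.75 (log2) in HFD 3 months, against -1.30 in ND 4 days and -0.95 in HFD 4 days. For Klk10 it was 0.62 in ND 3 months, against -0.64 in HFD 3 months and -0.87 in HFD 4 days. With 1 anagen array per condition, the difference between conditions was not tested.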

How the results depend on the processing

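The calls of Krt79, Lrig1 and Fst in anagen held in all 28 alternatives: 1.32 to 1.66 for Krt79 (adjusted p 0.00188 to 0.0322), 1.02 to 1.39 for Lrig1 (0.00268 to 0.0355) and -1.35 to -1.05 for Fst (0.000414 to 0.0124). No member passed in a telogen comparison under any of 102 combinations of setting and comparison. Of 1300 alternatives to the 70 member results, 1218 kept sign and side of the threshold, 6 newly passed and 76 changed sign, 51 of them on leaving out an array; no member that passed changed sign. The cause of these changes was not tested.

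The slide block, estimated from the single anagen arrays, turned the sign of differences that had not passed. In aged against ND 3 months it gave -0.38 for Fst, -1.50 for Gata6, 0.11 for Krt79, 0.32 for Lrig1, 0.22 for Ly6d and -0.62 for Plet1. In aged against ND 4 days it gave 0.01 for Krt79 and 0.51 for Lrig1, and in ND 3 months against ND 4 days 0.21 for Fst, -0.09 for Krt79, -0.12 for Ly6d and -0.52 for Sostdc1. It gave -0.07 for Fst in diet by duration, 0.05 for Lrig1 in HFD against ND at 3 months, and -0.13 for Gata6 and 0.27 for Klk10 in anagen. Median scaling gave -0.24 for Fst and -0.21 for Plet1 in aged against ND 3 months, -0.03 for Sostdc1 in HFD at 3 months, and 0.07 for Klk10 and 0.01 for Sostdc1 in anagen. Quantile normalization gave -0.0032 for Fst in diet by duration, 0.02 for Krt79 and 0.05 for Lrig1 in aged against ND 4 days, and 0.0047 for Plet1 in HFD at 3 months.

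Counts of all genes past the threshold moved more. Anagen had 1145, 677 with the slide block, and 555 to 2056 on leaving out an array (555 without ND 3 months, 609 without ND 4 days, 563 without HFD 4 days, 761 without aged and 2056 without HFD 3 months anagen), when 3 to 5 members passed. Aged against ND 3 months had 12, with 2 after normexp, 0 with the stricter filter, 0 with only the arrays compared, 5 with the slide block, and 5 to 24 without an array. Aged against ND 4 days had 7, with 3 after normexp, 0 with the stricter filter, 0 with only the arrays compared, 12 after quantile normalization, 1 with the slide block, and 4 to 6 without an array. ND 3 months against ND 4 days had 3, with 0 with only the arrays compared, 7 with the slide block, and 0 to 4 without an array. The diet comparisons had 0, against 1 at 3 months with median scaling and with quantile normalization, 1 at 4 days with only the arrays compared, 1 for diet by duration with median scaling and with only the arrays compared, and 0 to 1 without an array in each.

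The telogen groups share replicate numbers. Deviations from group means correlated at -0.139 to 0.0586 between samples of 1 number (30 pairs, median 0.0128). Samples of different numbers gave -0.1049 to 0.1093 (60 pairs). Over all groups together the numbers thus showed no pairing, and the 4-day groups alone were not tested. There the members' median deviation by replicate number was 0.26, -0.76 and -0.42 on ND, and 0.30, -0.79 and -0.44 on HFD. ND 3 months had the same order, HFD 3 months and aged did not. Replicate number also went with slide column, and the diet tests took the samples as unpaired. With the replicate number as a block, aged against ND 3 months had 7 genes, ND 3 months against ND 4 days 0, and 0 members passed.

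Leaving out single telogen arrays turned the sign of estimates near 0, over these ranges. HFD against ND at 3 months: Cst6 -0.07 to 0.42, Fst -0.43 to 0.07, Lrig1 -0.28 to 0.10, Ly6d -0.07 to 0.39, Plet1 -0.20 to 0.34 and Sostdc1 -0.10 to 0.15. At 4 days: Defb6 -0.06 to 1.25, Gata6 -0.88 to 0.40, Klk10 -0.98 to 0.38, Krt79 -0.60 to 0.26 and Ly6d -0.64 to 0.29. Diet by duration: Cst6 -0.53 to 0.02, Defb6 -1.0 to 0.31, Fst -0.28 to 0.23, Gata6 -1.09 to 0.28 and Ly6d -0.13 to 0.81. Aged against ND 3 months: Fst -0.30 to 0.29 and Plet1 -0.26 to 0.46. Aged against ND 4 days: Krt79 -0.42 to 0.36 and Lrig1 -0.30 to 0.37. ND 3 months against ND 4 days: Fst -0.50 to 0.0045, Gata6 -0.37 to 0.99 and Sostdc1 -0.18 to 0.27. Anagen: Gata6 -0.33 to 0.68 and Klk10 -0.33 to 0.04, each over all 20 arrays left out in turn.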
